A study of Mus musculus with 24 samples.

Results

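Icam1, Selp, Tnfaip6 and Socs3, 4 genes of leukocyte adhesion and of feedback on inflammatory cytokines, were followed in skin and lung of mice after local irradiation. The 4 genes were chosen by their measured change from the same strain's non-irradiated array, so those changes are given below as a description without a test. They were 4 of the 8750 features on the array, of which 5908 carried a gene symbol, and each was read by 1 probe whose only annotated symbol was that gene. All 4 had a value on all 24 arrays, with 1 deposited ratio of exactly 0, that of Tnfaip6 in A/J skin at 72 h. No filter on low values was applied, and none of the 4 genes reached the limit set on the deposited ratios.

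The mice were inbred females, aged 12 to 13 weeks, of the C57BL/6J, A/J and C3H/HeMs strains, with no engineered allele named in the labels. Lung came from non-irradiated mice and from mice 1 h, 12 h or 72 h after a single gamma-ray dose of 10 Gy to the thorax. Skin was taken from non-irradiated mice and at the same times after 30 Gy to the hind leg. Dose and irradiated site thus differed between the tissues. Each array held RNA pooled from 3 mice, with 1 array per strain, tissue and time, so the 3 strains served as the replicates of each group and the spread between single mice was not measured. Every pool was hybridised in a 2-colour design against a common reference of commercial RNA from 10 organs, lung in Cy3 and skin in Cy5. Values are log2 ratios of the sample over that reference, centred on each array's median, and a change is the difference from the same strain's non-irradiated array on that scale. Precision is limited by these small groups of arrays.

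Icam1 encodes intercellular adhesion molecule 1, an endothelial and epithelial surface protein to which leukocytes bind through beta-2 integrins, and Selp encodes P-selectin, which is stored in endothelial cells and platelets and starts leukocyte rolling. Tnfaip6 encodes TSG-6, a secreted hyaluronan-binding protein made after tumour necrosis factor or interleukin-1 and known to limit neutrophil entry. Socs3 encodes an inhibitor of cytokine receptors that is induced through STAT3 by interleukin-6 family cytokines and then dampens that signal. NF-kappaB, AP-1 and STAT factors are textbook regulators of genes of this kind.

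The sequences directly upstream of the 4 start sites are shown because their genes were all higher in skin at 1 h. They are from RefSeq on GRCm38, in which all 4 genes were matched by symbol, and end at the base before the annotated start. Capitals mark matches to 3 motifs sought on both strands: TTCNNNGAA for STAT, GGNNNTTCC, an NF-kappaB-like pattern, and TGANTCA for AP-1. GGNNNTTCC is called the NF-kappaB letters below. The windows are chr9:21015690-21015939 on the plus strand for Icam1, chr1:164115014-164115263 on the plus strand for Selp and chr2:52037863-52038112 on the plus strand for Tnfaip6. For Socs3 only 30 bases around its match are shown, chr11:117969501-117969530 on the minus strand, since a longer RefSeq model of the gene covers this window.
Icam1: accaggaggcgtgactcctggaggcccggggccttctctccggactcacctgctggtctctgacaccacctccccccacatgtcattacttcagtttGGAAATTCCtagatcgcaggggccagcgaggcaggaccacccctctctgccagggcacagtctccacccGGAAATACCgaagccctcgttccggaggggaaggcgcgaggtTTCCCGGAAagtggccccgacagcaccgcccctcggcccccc
Selp: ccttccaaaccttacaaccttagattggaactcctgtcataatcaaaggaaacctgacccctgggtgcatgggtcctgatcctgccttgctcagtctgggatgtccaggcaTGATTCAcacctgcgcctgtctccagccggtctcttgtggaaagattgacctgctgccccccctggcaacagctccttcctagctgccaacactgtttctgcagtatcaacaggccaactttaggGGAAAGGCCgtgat
Tnfaip6: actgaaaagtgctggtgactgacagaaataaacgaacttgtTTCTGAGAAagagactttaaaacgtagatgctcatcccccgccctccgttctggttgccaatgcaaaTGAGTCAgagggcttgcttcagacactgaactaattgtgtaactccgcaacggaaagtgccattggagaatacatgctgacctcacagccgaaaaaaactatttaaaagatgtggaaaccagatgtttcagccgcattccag
Socs3: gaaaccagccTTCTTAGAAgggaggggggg

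Counted back from the start site, Icam1 held the NF-kappaB letters at -153 to -145, where GGAAATTCC matched on both strands, and again at -84 to -76, and the STAT letters at -42 to -34. Tnfaip6 held the STAT letters at -209 to -201 and the AP-1 letters at -142 to -136. Selp held the AP-1 letters at -139 to -133 and the NF-kappaB letters at -14 to -6, while Socs3 held the STAT letters at -154 to -146. No match overlapped one of another motif. Among 32851 RefSeq windows of 250 bases upstream, 7.02% held the STAT letters, 15.7% the NF-kappaB letters and 6.75% the AP-1 letters. A match describes the letters of the window and no binding was measured.

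The tissue labels were checked against marker lists. In lung the ratio exceeded the reference for all 6 lung epithelium markers on the array (median log2 ratio 2.54) and for all 13 endothelial markers (1.79). In skin all 7 epidermal genes lay above it (5.32), whereas 1 of 13 endothelial genes did (-0.90), the reference being a mix of organs. Skeletal muscle genes, of which 11 were measured, varied among the skin arrays: their mean log2 ratio was 1.46 and 1.10 in C3H/HeMs without irradiation and at 1 h, against -1.22 and -0.97 at 12 h and 72 h. In the other 8 skin arrays it lay between -1.31 and 0.12. The C3H/HeMs values of all 4 genes in skin come from arrays with this shift, and its part in them was not tested. On the C57BL/6J skin array at 12 h the 10 measured B cell genes had a mean log2 ratio of 0.0024 and the 11 T and NK cell genes one of 0.21, against at most -1.16 and -0.35 on the other 11 skin arrays. Glycam1, a mucin-like glycoprotein made in the high endothelial venules of lymph nodes and singled out after its values were seen, read 6.47 on that array and between -1.71 and -0.80 on the other skin arrays. The endothelial list was also highest there, at -0.12. Changes of the 4 genes and of the genes named below in skin at 12 h are therefore also given without this array. The lung arrays of A/J and C3H/HeMs at 12 h and 72 h stood apart from the other 8, with Pearson correlations over all features of 0.89 to 0.94 among themselves, 0.90 to 0.96 among the 8 and 0.80 to 0.89 between both sets, and with 115 to 674 probes deposited at exactly 0 against 1 to 23. Lung values at 12 h and 72 h are therefore also given for C57BL/6J alone.

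In skin, Icam1 was higher at 1 h and 12 h in all 3 strains and back near the non-irradiated level at 72 h. Its log2 ratio in A/J was -0.56 without irradiation, 0.74 at 1 h, 0.83 at 12 h and 0.04 at 72 h. C57BL/6J ran closely alongside, at -0.54, 0.80, 0.92 and -0.34 in the same order. C3H/HeMs started higher, at 0.09, and reached 0.56 and 0.60 before -0.13 at 72 h. The irradiated arrays at 1 h and 12 h lay within a narrow band above all 3 non-irradiated ones, and the strains differed mainly in where they started. The mean change was 1.03 ± 0.50 (SD, n = 3 strains) at 1 h, a 2.05-fold difference, and 1.12 ± 0.53 at 12 h, 2.18-fold, against 0.19 ± 0.41 at 72 h. From 12 h to 72 h Icam1 was lower in all 3 strains, by a mean log2 difference of -0.93 ± 0.29. Without C3H/HeMs the changes were 1.32, 1.43 and 0.40 at the 3 times, and without the C57BL/6J array at 12 h the change there was 0.95.

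**Figure D1:**
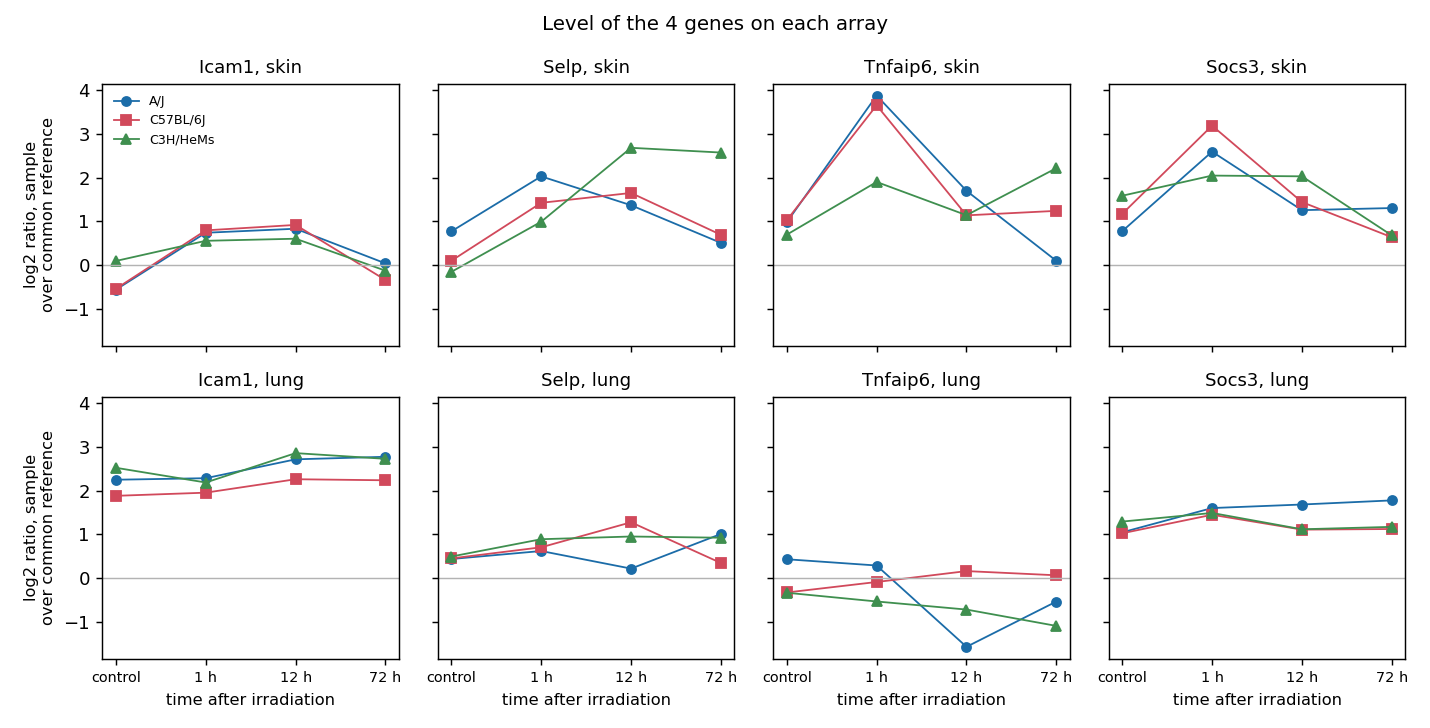
Log2 ratio of sample over common reference (vertical axis) by group, non-irradiated to 72 h (horizontal axis), for the 4 genes in skin (top) and lung (bottom), with 1 point per array and 1 line per strain. In skin all 12 points at 1 h lie above the same gene's non-irradiated points, and Selp in C3H/HeMs stays at 2.69 and 2.58 at 12 h and 72 h. In lung Icam1 lies between 1.88 and 2.86 at every time.

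Selp in skin was higher at 1 h by nearly the same amount in each strain and then diverged. In A/J it read 0.77 without irradiation, 2.03 at 1 h, 1.37 at 12 h and 0.51 at 72 h. In C57BL/6J the values were 0.10, 1.43, 1.65 and 0.69. C3H/HeMs went from -0.15 to 0.99 at 1 h and to 2.69 and 2.58 at 12 h and 72 h, the 2 highest values of the gene in the series. A/J was thus highest at 1 h, C57BL/6J at 12 h, and C3H/HeMs had not come down at 72 h. The change at 1 h was 1.25 ± 0.09 (SD, n = 3 strains), 2.37-fold. At 12 h it was 1.66 ± 1.13, 3.17-fold, from 0.60 in A/J to 2.84 in C3H/HeMs, and at 72 h 1.02 ± 1.54. Without C3H/HeMs those means were 1.29, 1.08 and 0.17, so the 72 h value rested on that strain. Without the C57BL/6J array the 12 h change was 1.72. The non-irradiated C3H/HeMs array carried the skeletal muscle level of 1.46 given above and those at 12 h and 72 h did not. The endothelial list on the same arrays read -0.67 without irradiation, -0.67 at 12 h and -0.86 at 72 h, and the platelet list, 6 genes, -0.04, -0.19 and -0.21. Their members went both ways: at 12 h 6 of 13 endothelial genes were higher in C3H/HeMs than without irradiation, Sox17 most, by 1.16, and 3 of 6 platelet genes were, Ppbp most, by 1.61. The part of muscle, endothelium and platelets in the Selp values was not tested. In pools of whole tissue, more cells of a type and more RNA per cell cannot be told apart.

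Tnfaip6 had the largest 1 h change of the 4 genes in skin and was near its non-irradiated level by 12 h. It stood at 0.98 in non-irradiated A/J, at 3.88 at 1 h, at 1.70 at 12 h and at 0.10 at 72 h, the last on a deposited ratio of exactly 0. C57BL/6J gave 1.03, 3.66, 1.14 and 1.24. C3H/HeMs gave 0.70, 1.90, 1.14 and 2.22. A/J and C57BL/6J shared a single peak at 1 h, and in C3H/HeMs the 1 h value was lower than in the other strains and the 72 h value was the highest of the 4. The mean change was 2.25 ± 0.91 (SD, n = 3 strains) at 1 h, 4.75-fold. It ranked 4 among the mean changes of all 8750 features, on the contrast that chose the genes, so nothing is read from the rank. The mean change was 0.43 ± 0.30 at 12 h and 0.28 ± 1.21 at 72 h, with -0.88 in A/J and 1.52 in C3H/HeMs at the last time. That A/J change rests on the deposited ratio of exactly 0, and without its 72 h array the mean there was 0.87. Without the C57BL/6J array the 12 h change was 0.58. From 1 h to 12 h Tnfaip6 was lower in all 3 strains, by -1.82 ± 0.93. Without C3H/HeMs the 1 h change was 2.77 and the 72 h change -0.33, the latter also drawing on the A/J ratio of exactly 0.

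Socs3 in skin also had its highest value at 1 h. In A/J it read 0.78, 2.60, 1.26 and 1.31 at the 4 times. In C57BL/6J it read 1.17, 3.19, 1.44 and 0.64. In C3H/HeMs it read 1.59, 2.05, 2.03 and 0.68, so this strain began highest, changed least at 1 h and held that level to 12 h. All 3 irradiated arrays at 1 h lay above the highest non-irradiated one, whereas at 12 h and 72 h the groups overlapped. The change was 1.43 ± 0.85 (SD, n = 3 strains) at 1 h, 2.70-fold, then 0.40 ± 0.11 at 12 h and -0.30 ± 0.75 at 72 h. From 1 h to 72 h it was lower in all 3 strains, by -1.74 ± 0.71. Without C3H/HeMs the change at 1 h was 1.92, and without the C57BL/6J array at 12 h the change there was 0.46.

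At 1 h in skin all 4 genes had their 3 irradiated arrays above the 3 non-irradiated ones, which held for 2.59% of all features. All 4 were higher in each strain (11% of features) and had a mean change of at least 2-fold (0.64%). Selp and Tnfaip6 were at least 2-fold higher in every strain, which 0.103% of features were. At 12 h Icam1, Selp and Tnfaip6 had no overlap with the non-irradiated arrays (3.63% of features), all 4 were higher in each strain (10.3%), and Icam1 and Selp exceeded 2-fold on average (1.59%). At 72 h none was higher in all strains (14.7%) or free of overlap (4.19%), and 1, Selp, exceeded 2-fold on average (3.03%). Since this contrast chose the genes, nothing is read from these counts.

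**Figure D2:**
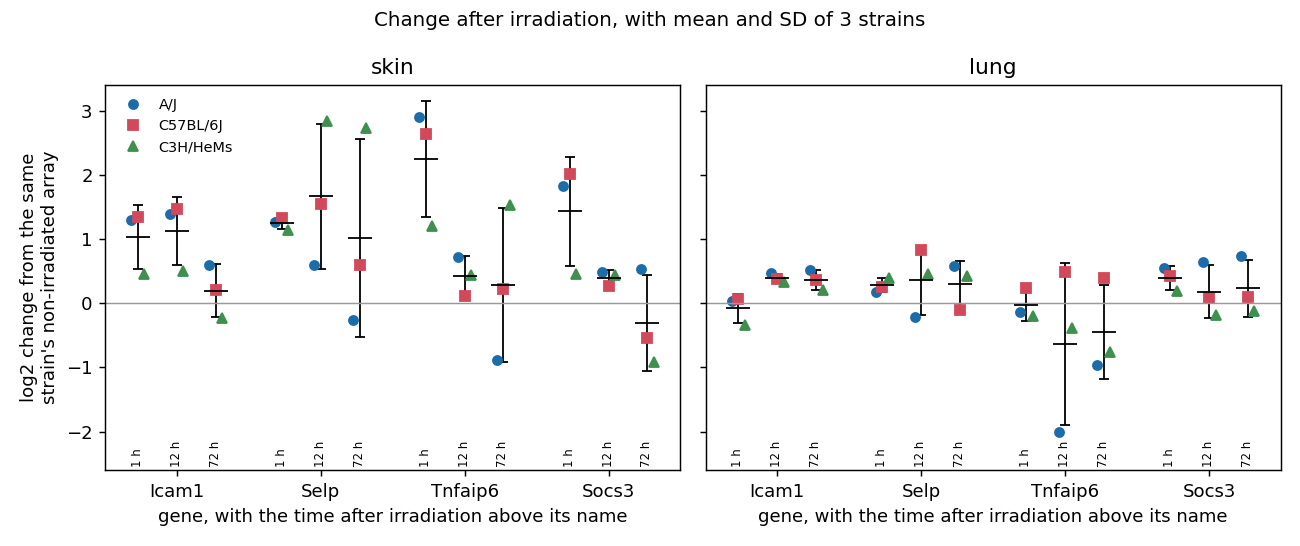
Log2 change from the same strain's non-irradiated array (vertical axis) in skin (left) and lung (right), grouped by gene and ordered by time (horizontal axis); points are strains, the black bar is their mean and the whiskers 1 SD (n = 3). In skin at 1 h every point lies above 0, from 0.46 to 2.90, and Selp at 1 h has the smallest spread (SD 0.09). In lung the means lie between -0.63 and 0.39.

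In lung the mean changes of the 4 genes lay between -0.63 and 0.39, and at 1 h between -0.08 and 0.39. Icam1 in A/J read 2.25 without irradiation, then 2.29, 2.72 and 2.78. In C57BL/6J it read 1.88, 1.96, 2.26 and 2.24, and in C3H/HeMs 2.53, 2.19, 2.86 and 2.73. The change was -0.08 ± 0.23 (SD, n = 3 strains) at 1 h, 0.39 ± 0.07 at 12 h, 1.31-fold, and 0.36 ± 0.16 at 72 h. At the later times each strain lay above its own non-irradiated array, although the C57BL/6J values stayed below the non-irradiated C3H/HeMs one. C57BL/6J alone, whose arrays did not stand apart, gave 0.38 and 0.36. With quantile normalization of the lung arrays the 12 h mean was 0.15.

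Selp in lung lay between 0.44 and 0.49 on the 3 non-irradiated arrays, the tightest group of the gene. At 1 h A/J read 0.62, C57BL/6J 0.71 and C3H/HeMs 0.89, all above that range, a change of 0.28 ± 0.11. At 12 h the strains spread to 0.22, 1.28 and 0.95 and at 72 h to 1.01, 0.35 and 0.93. The changes there were 0.36 ± 0.53 and 0.30 ± 0.36, with C57BL/6J alone at 0.83 and -0.10. The A/J array at 72 h also had a mean log2 ratio of 1.90 over the 6 measured platelet genes, against 0.02 to 0.56 on the other 11 lung arrays, and the part of this in its Selp value was not tested.

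Socs3 in lung was higher at 1 h in all 3 strains, with A/J at 1.61 against 1.05, C57BL/6J at 1.45 against 1.03 and C3H/HeMs at 1.49 against 1.30. The groups did not overlap, and the change was 0.39 ± 0.18, 1.31-fold. At 12 h and 72 h A/J remained higher, at 1.69 and 1.78. The other 2 strains, between 1.11 and 1.17, were within 0.18 of their own non-irradiated arrays. The mean changes were 0.18 ± 0.42 and 0.24 ± 0.44, and the A/J arrays behind them were among the 4 that stood apart.

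Tnfaip6 in lung had no common direction. In A/J it went from 0.43 to 0.29, -1.57 and -0.54, and in C3H/HeMs from -0.33 to -0.53, -0.72 and -1.09. In C57BL/6J it went the other way, from -0.33 to -0.09, 0.16 and 0.07. The lower values at 12 h and 72 h were thus all on the 4 arrays that stood apart. The mean change was -0.03 ± 0.24 at 1 h, -0.63 ± 1.27 at 12 h and -0.44 ± 0.73 at 72 h, and C57BL/6J alone gave 0.49 and 0.39.

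At 1 h in lung 2 of the 4 genes, Selp and Socs3, were higher in all 3 strains (14.6% of features) and free of overlap with the non-irradiated arrays (3.53%). At 12 h and at 72 h 1 gene, Icam1, was higher in all strains, against 16.8% and 18.4% of features, and none was free of overlap, against 6.39% and 7.15%. This contrast also chose the genes, and nothing is read from the counts. In each strain the change at 1 h was larger in skin than in lung for each of the 4 genes. The difference of the changes was 1.11 ± 0.27 for Icam1, 0.97 ± 0.19 for Selp, 2.28 ± 0.82 for Tnfaip6 and 1.04 ± 0.69 for Socs3 (SD, n = 3 strains). It was smallest in C3H/HeMs for all 4, with 0.26 for Socs3. At 12 h the change was larger in skin in all 3 strains for Icam1 (0.73 ± 0.49) and Selp (1.31 ± 0.93) and in 2 of 3 for Tnfaip6 (1.06 ± 1.56) and Socs3 (0.22 ± 0.39). At 72 h it was larger in 2 of 3 strains for Selp (0.72 ± 1.57) and Tnfaip6 (0.73 ± 1.35), in 1 for Icam1 (-0.17 ± 0.25) and in none for Socs3 (-0.54 ± 0.30). These differences are built from the changes that chose the genes. The share of all features with a larger change in skin was not counted, so nothing is read from the strain counts. The tissues differed in dose, site and dye as well.

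The level without irradiation enters every change that chose the genes, so the difference between the tissues is given as a description without a test. Icam1 was 5.89-fold lower in skin than in lung, with mean log2 ratios of -0.34 and 2.22, a difference of -2.56 ± 0.20 (SE of the fit of 24 arrays). A/J gave a difference of -2.82, and C57BL/6J and C3H/HeMs gave -2.43 each. Tnfaip6 was higher in skin in all 3 strains, by 0.98 ± 0.53. Selp differed by -0.22 ± 0.45 and Socs3 by 0.06 ± 0.30, with the strains on both sides of 0. Dye and tissue cannot be told apart here, since all lung RNA was in Cy3 and all skin RNA in Cy5. Without irradiation all 13 endothelial markers lay above the reference in lung and 0 did in skin. Icam1 was thus lower in the tissue with the lower endothelial list, and the part of endothelium in its level was not tested.

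Ordered by group mean, Icam1 ran from lung at 12 h (2.62 ± 0.31), 72 h (2.58 ± 0.30), without irradiation (2.22 ± 0.32) and at 1 h (2.15 ± 0.17) to skin at 12 h (0.79 ± 0.16), 1 h (0.70 ± 0.13), 72 h (-0.14 ± 0.19) and without irradiation (-0.34 ± 0.37). The 4 lung groups overlapped, as did the 2 upper and the 2 lower skin groups, and gaps larger than the spread separated lung from skin and 1 h from 72 h in skin. Tnfaip6 was highest in skin at 1 h (3.15 ± 1.08) and lowest in lung at 12 h (-0.71 ± 0.87). In skin its 72 h group (1.19) overlapped the 1 h group, the 12 h group (1.33) and the non-irradiated group (0.90). Those other skin groups did not overlap each other. In lung the 4 Tnfaip6 groups overlapped. Socs3 was highest in skin at 1 h (2.61 ± 0.57), and its other 7 groups, with means from 0.88 to 1.58, overlapped with their neighbours. Selp ran from skin at 12 h (1.90 ± 0.69) and 1 h (1.48 ± 0.52) to skin without irradiation (0.24 ± 0.48), each neighbour overlapping the next except lung at 1 h (0.74 ± 0.14) and lung without irradiation (0.46 ± 0.03). The order includes the values that chose the genes. Shares of all features without overlap were counted only for irradiated against non-irradiated arrays of a tissue, as given above. Nothing is read from the overlaps and gaps listed here.

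The strains were compared over their 4 arrays of a tissue with an F test across all features. The test compared mean levels over the times, on arrays that also entered the choice of the genes. Differences between strains in time course counted as spread, so not passing does not show that the strains were alike. In skin none of the 4 genes passed, with limma adjusted p from 0.692 for Selp to 0.961 for Icam1, where 0.377% of features did. In lung none passed either, where 2.95% did. Icam1 came closest: its mean log2 ratio over 4 arrays was 2.51 ± 0.28 in A/J, 2.58 ± 0.29 in C3H/HeMs and 2.09 ± 0.19 (SD, n = 4) in C57BL/6J (limma adjusted p = 0.0711; 0.0657 to 0.838 over the alternatives). C57BL/6J was the lowest strain at each of the 4 times. With the lung arrays that stood apart as a block the adjusted p by limma was 0.251. For Selp, Tnfaip6 and Socs3 in lung the limma adjusted p were 0.708, 0.458 and 0.294.

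Genes that act before, beside or after the 4 were taken from 5 lists, in which 100 genes besides the 4 were measured. They comprised 25 leukocyte adhesion genes, 24 cytokine feedback inhibitors, 18 genes of the interleukin-6 family and JAK-STAT pathway, 13 hyaluronan matrix genes and 21 upstream tumour necrosis factor, interleukin-1 and NF-kappaB genes, with 1 gene in more than 1 list. None passed limma's test in skin at 1 h, 12 h or 72 h, where 0% of all 8750 features did. At an unadjusted p under 0.05, 8 were higher and 2 lower at 1 h, against 4.37% of all features. At 12 h 14 were higher and 1 lower, against 6.71%, and at 72 h 4 and 6, against 7.39%. The median change over the 100 genes in skin was 0.06, 0.08 and -0.01 at the 3 times, beside -0.05, -0.03 and -0.01 over all features, and 0.04 at 12 h over A/J and C3H/HeMs. Il1a, Il6, Sele, Has1 and Has2 were not analysed here.

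Among the upstream signals, Il1b, which encodes interleukin-1 beta, had the smallest p in skin at 1 h and 12 h. Its change was 1.79 ± 0.33 (SE) at 1 h (limma adjusted p = 0.503) and 1.72 ± 0.33 at 12 h (limma adjusted p = 0.168), positive in all 3 strains at both times, and -0.75 at 72 h. Tnf, tumour necrosis factor itself, was at 0.56, 1.27 and 0.01 at the 3 times, and its receptor gene Tnfrsf1a at 0.38, 0.53 and 0.21. Birc3, an NF-kappaB target that inhibits apoptosis, had changes of 0.57 at 1 h and 0.93 ± 0.22 at 12 h. At 72 h the smallest p in this list were those of Il18, encoding a cytokine of the interleukin-1 family, at 1.36 ± 0.30, and of Ikbke, encoding a kinase of the NF-kappaB and interferon pathways, at 0.70. The list median was 0.14 at 1 h, 0.20 at 12 h and 0.01 at 72 h. Of the adhesion partners, Vcam1, the endothelial ligand of alpha-4 integrins, was at -0.12 at 1 h and at 1.10 ± 0.34 at 12 h (limma adjusted p = 0.604), with C57BL/6J at 2.00 against 0.77 and 0.54 for A/J and C3H/HeMs. Itgam, the alpha chain of the Mac-1 integrin that binds ICAM-1, was at 0.81, 1.42 and 1.00, with 2.35 in C57BL/6J at 12 h, while Itgal, the alpha chain of LFA-1, and Itgb2, the beta chain of both integrins, lay between -0.09 and 0.31.

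Selplg, the leukocyte ligand of P-selectin, was at -0.02, 0.71 and -0.36 in skin, with 1.90 in C57BL/6J at 12 h, and Icam2, a second endothelial ICAM, at 0.01, 0.34 and 0.02. Ezr, which links membrane proteins to actin, and Cd44, a hyaluronan receptor, were at 0.64 and 0.55 at 1 h and had the smallest p of the adhesion list there. At 72 h Itga4, the alpha-4 integrin chain, had the smallest p of that list, at 1.85 ± 0.61 with 3.71 in A/J. The adhesion list had medians of -0.02, 0.08 and -0.01. Neutrophil markers, 9 measured, had mean log2 ratios of -0.85 to -0.53 on the non-irradiated skin arrays, -0.93 to -0.48 at 1 h, -0.31 to 0.14 at 12 h and -0.74 to -0.71 at 72 h. Macrophage markers, also 9, ran from 0.18 to 1.00, 0.37 to 1.36, 0.89 to 1.62 and 0.78 to 1.09. The C57BL/6J array at 12 h, with the B cell and Glycam1 values given above, held the highest macrophage value and the highest changes of Vcam1, Itgam and Selplg. The part of these cells in the adhesion values at 12 h was not tested.

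**Figure D3:**
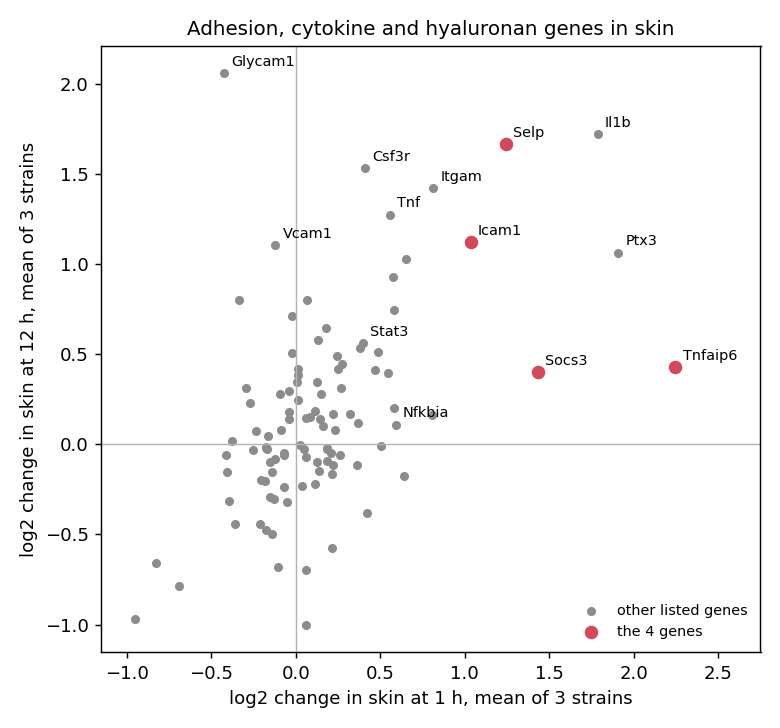
Mean log2 change over 3 strains in skin at 1 h (horizontal axis) against 12 h (vertical axis) for the 100 listed genes (grey) and the 4 chosen ones (red). Tnfaip6 and Socs3 lie to the right with 12 h changes of 0.43 and 0.40, Icam1 and Selp lie near the diagonal beside Il1b, Vcam1 lies at -0.12 and 1.10, and Glycam1 lies at -0.42 and 2.06 through its C57BL/6J value of 7.29 at 12 h; both axes use the same non-irradiated arrays.

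In the hyaluronan list, Ptx3, which encodes pentraxin 3, a partner of TSG-6 in the hyaluronan matrix, came nearest to Tnfaip6 at 1 h, with 1.91 ± 0.54 in skin (limma adjusted p = 1) and strain values of 2.21, 2.83 and 0.69. It was at 1.06 at 12 h and 0.36 at 72 h. Itih3, a heavy chain of inter-alpha-inhibitor of the kind that TSG-6 transfers to hyaluronan, and its relative Itih4 were at -0.78 and -0.97 at 12 h, and Itih3 was below 0 in all 3 strains at each time. Ambp, the precursor of bikunin, the light chain of that inhibitor, was at -0.77 at 72 h. These genes lay far below the reference in skin, with Itih3 between -4.68 and -3.48 and Ambp between -6.42 and -4.89. Itih4 went from -2.6 without irradiation to -4.8 at 12 h in C3H/HeMs, whose non-irradiated array carried the muscle level given above. It went from -4.7 to -5.4 in A/J and stayed at -4.6 in C57BL/6J. The list median was -0.04, -0.15 and -0.37.

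Among the genes around Socs3, Stat3, the factor that induces it, was at 0.40, 0.56 and 0.18 in skin, and Il6st, the shared receptor chain gp130, at 0.01, 0.39 and 0.15. Csf3, the gene of granulocyte colony-stimulating factor, was at 0.80 ± 0.24 at 1 h. Its receptor gene Csf3r, which neutrophils express and which is also among the 9 neutrophil markers, was at 1.53 ± 0.42 at 12 h. Osmr, the oncostatin M receptor, was at 0.48 and 0.51 at 1 h and 12 h. Ifngr1 and Junb had the smallest p of this list at 72 h, at -0.42 and -0.45. The list median was 0.23, 0.15 and 0.12. Of the other Socs genes, Socs1 was at 0.15, 0.28 and 0.20 and Socs5 at -0.36, -0.44 and -0.34. Socs2, Socs4, Socs6 and Socs7 lay between -0.43 and 0.43 at all 3 times. Nfkbia, encoding the inhibitor of NF-kappaB, was at 0.59, 0.11 and -0.84, Nfkbib at 0.37 at 1 h, Tnfrsf1b, the second receptor of tumour necrosis factor, at 0.80 and Bcl3 at 0.49 at 12 h, and Dusp2, a phosphatase of MAP kinases, at -1.71 at 72 h. The feedback list had medians of 0.06, -0.02 and -0.05.

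Without the C57BL/6J array the 12 h changes in skin, as means of A/J and C3H/HeMs, were smaller for several of these genes. Vcam1 was then at 0.66, Itgam at 0.96, Selplg at 0.12, Itgb2 at -0.13, Icam2 at -0.01, Tnfrsf1b at 0.51, Il6st at 0.17 and Socs1 at 0.01. Il1b at 1.42, Tnf at 1.25, Tnfrsf1a at 0.45, Birc3 at 0.84, Csf3r at 1.48, Osmr at 0.51, Stat3 at 0.64 and Itgal at 0.26 were within 0.30 of their means of 3 strains. Ptx3 was higher, at 1.49, as was Bcl3, at 0.68, while Itih3 was at -0.72, Itih4 at -1.44 and Nfkbia at 0.25. Of the other Socs genes, Socs5 was at -0.25, Socs2 at -0.31, Socs6 at -0.05, Socs4 at -0.10 and Socs7 at -0.26.

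In lung none of the 100 genes passed limma's test either, where 0.0114%, 0.114% and 0.114% of all features did at the 3 times. At an unadjusted p under 0.05, 3 were higher and 0 lower at 1 h, against 2.24% of all features, 8 and 5 at 12 h, against 12.1%, and 9 and 6 at 72 h, against 12.4%. The shares of the 100 were thus near those of all features. The median change over the 100 was 0.02, 0.09 and 0.11, beside -0.01, 0.07 and 0.05 over all features. In C57BL/6J alone it was -0.02 and -0.0024 at 12 h and 72 h. Csf3r had the smallest p, with 0.66, 0.86 ± 0.18 and 0.82 at the 3 times (limma adjusted p = 0.202 at 12 h), positive in all 3 strains at each time. Il4ra, a receptor chain for interleukin-4 and interleukin-13, was at 0.61 and 0.72 at 1 h and 12 h and the interferon receptor gene Ifnar1 at 0.44 at 72 h. Il1b was at 0.89, 0.82 and 1.00, with -0.09 in A/J at 1 h. The receptor partner Il1rap and the NF-kappaB subunit gene Rela were at 0.66 and 0.47 at 12 h and at 0.61 and 0.50 at 72 h, and Relb at 0.30 at 1 h. C57BL/6J alone gave 0.88 and 0.70 for Csf3r, 1.51 and 1.00 for Il1b, 0.29 and 0.50 for Il1rap and 0.18 and 0.35 for Rela at 12 h and 72 h. It gave 0.63 for Il4ra at 12 h and 0.06 for Ifnar1 at 72 h, so the Ifnar1 value lay in the arrays that stood apart.

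Of the adhesion genes in lung, Vcam1 and Itgam lay between -0.04 and 0.35. Those with the smallest p were Itgb7 and Cx3cl1 at 12 h, at -0.63 and -0.51, Rdx and Itgae at 72 h, at -1.10 and -1.35, and Cd47 and Aoc3 at 1 h, at -0.18 and 0.21. In the hyaluronan list Acan and Itih4 were at -0.28 and -0.17 at 1 h, Vcan and Hyal2 at 0.59 and 0.39 at 12 h, and Itih4 and Vcan at -0.78 and 0.46 at 72 h. Ptx3 lay between -0.18 and 0.22. In the feedback list Dusp2 was at 0.29 and -0.65 and Nfkbia at 0.28 and -0.18 at 1 h and 12 h, Pias3 at 0.36 at 12 h, and Tnip1 and Nfkbia at 0.36 and -0.41 at 72 h. In C57BL/6J alone Itgb7 and Cx3cl1 were at -1.05 and -0.45 at 12 h, and Rdx and Itgae at -0.92 and -0.17 at 72 h. Vcan was at 0.21 and 0.03 at 12 h and 72 h there, Hyal2 at -0.39 at 12 h and Itih4 at -0.86 at 72 h. Dusp2, Nfkbia and Pias3 were at -0.50, -0.38 and 0.03 at 12 h, and Tnip1 and Nfkbia at 0.42 and -0.57 at 72 h. Hyal2 thus had the opposite sign there, and the values of Itgae, Vcan and Pias3 lay mostly in the arrays that stood apart. Vcam1 in C57BL/6J was at 0.40 and 0.37, Itgam at 0.66 and 0.49 and Ptx3 at 0.15 and 0.54 at the 2 times.

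The genes whose pattern across the 12 skin arrays was most like each of the 4 were ranked by Pearson correlation among 5669 named features. The arrays share strains, times and 1 reference, so the coefficients are a description. Icam1 was followed most closely by Trex1 and Emilin2 (r = 0.876 each), Plekho2 (0.871), the chemokine gene Ccl9 (0.869) and Il1b (0.854). Selp had looser companions: Ptgir, the prostacyclin receptor gene (0.870), Tlr2, a receptor for bacterial lipoproteins (0.812), Pgf and Osmr (0.780 each) and N4bp1 (0.773). Tnfaip6 was followed by the AP-1 gene Fosl1 (0.897), Gnl3 (0.867), Naa50 (0.857), the nuclear receptor gene Nr4a3 (0.847) and Mphosph10 (0.811). Fosl1 and Nr4a3 were 3.38 and 2.61 higher at 1 h. Socs3 was followed by Nfkbia and Uap1 (0.865 each), Ptx3 (0.862), Rela (0.845) and Atf4 (0.838).

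Within the 4, Icam1 and Socs3 (r = 0.696) and Tnfaip6 and Socs3 (0.665) had the highest Pearson correlations across the skin arrays, and Selp and Socs3 the lowest (0.240). The order depended on the measure: by Spearman rank correlation Selp with Tnfaip6 (0.657) and Icam1 with Socs3 (0.650) came first, and Tnfaip6 with Socs3 gave 0.350. Without C57BL/6J that last pair had a Pearson correlation of 0.477. Without C3H/HeMs Selp with Socs3 gave 0.622 and Icam1 with Selp 0.865, against 0.495 with all arrays. In lung the most like gene was Gtf3c3 for Icam1 (0.943), Ccdc88a for Selp (0.721), Mbp for Tnfaip6 (0.963) and Slc35e4 for Socs3 (0.904). None of the 20 genes ranked in lung was among the 20 ranked in skin. Lists this short, out of 5678 named features in lung and 5669 in skin, would seldom overlap by chance, so nothing is read from this. In lung Icam1 and Tnfaip6 ran in opposite directions (r = -0.613). The 4 arrays that stood apart held the 4 highest Icam1 values and the 4 lowest Tnfaip6 values. The highest of those Tnfaip6 values, -0.5352 in A/J at 72 h, lay just below the -0.5341 of C3H/HeMs at 1 h.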

How the data were processed

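RNA of lung and skin was measured on 24 2-colour Agilent cDNA arrays of 9275 probes. Per the labels, skin RNA was labelled with Cy5 and lung RNA with Cy3. The deposited values are log10 ratios of Cy5 over Cy3, limited to ±2, which the authors made with Agilent Feature Extraction, per the submitters' processing notes; version, background and dye steps are not given in the sources used here, and depth or spot brightness was not analysed here. Lung ratios were turned in sign, a direction that tissue markers bore out. All ratios were multiplied by 3.32 to log2 and centred on each array's median. Probes were named from an annotation of 2007 (6433 with 1 symbol, 381 with several, 2461 with none; 0 symbols changed against the current table), and probes of a gene were averaged.

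Tests used limma 3.58.1 in R 4.3.3 (lmFit, eBayes, Benjamini-Hochberg over 8750 features, threshold 0.05), checked on simulated data: 12 arrays of a tissue with 4 groups and strain as block for changes, an F test of strain with time as block. A fit of all 24 arrays gave the difference between non-irradiated skin and lung, printed without its p because those arrays entered the choice of the genes. Replicate numbers are strains, so they pair the groups. Deviations from the group means correlated within A/J at -0.02 to 0.68 (skin) and -0.05 to 0.59 (lung), within C57BL/6J at 0.17 to 0.32 and 0.16 to 0.71, and within C3H/HeMs at -0.05 to 0.47 and 0.02 to 0.52.

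The 4 genes, lists and tests were chosen with earlier results of these data known. Named besides the 4 are, for each list, tissue and time, the 2 genes with the smallest p where none passed, textbook partners of the 4, the 5 features most correlated with each, and Glycam1. The alternatives were centring, quantile normalization, the strain block, single probes, probes at the limit, the groups in the fit, each array or strain left out, and the 4 lung arrays that stood apart left out or as a block.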

Additional observations from a re-analysis of the deposited data

How the results depend on the processing

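None of the pathway genes passed in any tissue, time or alternative (0 in each), the fit with no replicate block included. Leaving out that replicate block changes no value of the non-irradiated difference between skin and lung (-2.56 for Icam1, with -2.74 to -2.39 over all alternatives). Socs3 moved to -0.12 with ratios not centred and from -0.19 to 0.32 with arrays or strains left out, Selp from -0.58 to 0.12 with arrays left out, and Tnfaip6 was at 0.98 with the non-irradiated arrays alone. Among the changes from control, Selp in skin at 1 h was 1.14 and Icam1 in lung at 12 h 0.15 under quantile normalization. With the 4 lung arrays as a block Icam1 at 12 h was 0.31 and Tnfaip6 at 72 h 0.40. Without those arrays Tnfaip6 at 72 h was 0.39 and Selp at 72 h -0.10. Of 24 changes, the others moved by less than 1 SD between strains in each alternative. The 5 most correlated genes were the least stable, with 0 to 3 of 5 kept under Spearman ranking or without 1 strain. Each group has 3 pools, which limits every value; the causes of these shifts were not tested.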
